A study of Mus musculus with 9 samples.

Results

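The cytosolic ribosomal proteins are the protein subunits of the ribosome that translates nuclear messages. Their genes were chosen by name: protein-coding entries whose symbol starts with Rpl or Rps and a digit, plus Rplp0, Rplp1, Rplp2 and Rpsa, without the S6 kinases (Rps6k), names holding -ps and Rps19bp1. The rule found 78 of the 44806 entries of the deposited gene count table, 46 of the large subunit (Rpl) and 32 of the small subunit (Rps), and 76 of them passed the filter on low counts that left 16596 tested genes. Rpl10l and Rpl39l did not pass. No entry carried the symbol Rplp1, and it is described further on under another entry.

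RNA sequencing was done on tumours of MB49, a mouse bladder cancer cell line, here carrying an overexpressed HER2 in every group, including the controls. The 3 groups received PBS, Lipo-BiTE or Lipo-TriTE, with 3 libraries each. The series title speaks of T cell engagers built from lipid-tagged antibody fragments, and the labels used here do not spell out their targets, doses or times, nor the age of the mice. Per the labels of the samples and their protocol, the RNA was taken from whole frozen tumour, whereas the series' design text speaks of sorted CD3+ T cells. Fibroblast and epithelial markers were present in all 9 libraries: 8 fibroblast genes summed to 936 to 3171 CPM and 6 epithelial genes to 397 to 975 CPM (CPM, the read count scaled to a common library size with TMM factors). The labels do not tie the libraries to separate animals, and the p-values given here therefore cover only the spread between these samples. In bulk tissue, fewer cells of a type and less RNA per cell cannot be told apart.

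A ribosome holds 1 copy of most of these proteins, and cells make them in near-equal amounts together with ribosomal RNA. Their messages are known for a 5′ terminal oligopyrimidine (TOP) tract, a C at the cap followed by a run of C and T bases, through which mTORC1 signalling, LARP1 and the 4E-BPs control how well they are translated. Activated T cells and proliferating tumour cells are both known for high ribosome production, and a change in translation through the TOP tract need not show in message levels.

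Promoter windows of 61 of the 78 genes were found in RefSeq's table (GRCm38.p6). The TOP tract was searched on the sense strand as a C followed by at least 5 bases that are each C or T, lying within the 20 bases before and the 20 bases after an annotated start. It was found in 41 of 61 ribosomal protein genes (67.2%), against 32.8% of 27025 genes with a window of the same length, and in 64.7% against 29.1% where a gene had 1 annotated start. Of 66 mitochondrial ribosomal protein genes, 36.4% held one. A match is a description of letters and not of a mapped cap site. The following windows run from 10 bases before the annotated start to 20 bases after it, with the tract in capitals. They are shorter than the stretch searched, and Rps3 and Rps28 had no tract in the whole of it. They show a gene called higher that has a tract (Rps9) and one that has none (Rps3), the S6 kinase substrate Rps6, a stalk protein, a gene with a long tract (Rpl13a) and Rps28, whose levels ran in a different order from those of most members.
Rps9: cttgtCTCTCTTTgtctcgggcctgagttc
Rps3: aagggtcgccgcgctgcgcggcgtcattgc
Rps6: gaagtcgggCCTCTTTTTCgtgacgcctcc
Rplp2: cagcgtCTTCCTTTCgccgccggacgccgc
Rpl13a: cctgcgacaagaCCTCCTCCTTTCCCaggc
Rps28: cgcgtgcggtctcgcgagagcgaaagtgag
The windows lie at chr7:3704031-3704060 on the plus strand (Rps9), chr7:99483690-99483719 on the minus strand (Rps3), chr4:86857348-86857377 on the minus strand (Rps6), chr7:141447641-141447670 on the plus strand (Rplp2), chr7:45128726-45128755 on the minus strand (Rpl13a) and chr17:33824543-33824572 on the minus strand (Rps28). Rpl8, the other gene called higher, has no entry in that table.

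The libraries held 13152783 to 20273548 gene counts. Libraries of a group differed by more than counting noise: the chi-square per degree of freedom between them was 4.81 for PBS libraries 2 and 3 and 22.6 to 89.7 for the other pairs. The levels of cell type markers differed between the groups. All 10 T cell markers rose in all 3 comparisons, their summed level being 44.6 to 55.0 CPM in PBS, 219 to 396 CPM in Lipo-BiTE and 931 to 1601 CPM in Lipo-TriTE, with none of the 10 at 0 in every library. All 8 macrophage and all 6 neutrophil markers rose in both treated groups against PBS, all 8 B cell markers rose in Lipo-TriTE against both other groups, and 5 and 4 of 8 fibroblast markers fell in Lipo-BiTE and Lipo-TriTE against PBS. The part of this shift in the ribosomal protein values was not tested.

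The ribosomal protein genes together took 6.39%, 4.83% and 4.45% of all gene counts in PBS libraries 1 to 3. Their share was 3.58%, 3.85% and 4.97% in the Lipo-BiTE libraries and 4.98%, 5.07% and 6.77% in the Lipo-TriTE libraries. Each group therefore had 1 library well above its other two, and PBS 1 and Lipo-TriTE 3 were the highest of all 9. Counting error was small beside this spread, as the 95% Wilson interval of the lowest share ran from 3.57% to 3.59%, and it covers counting error only. The mean share was 5.22% ± 1.03 for PBS, 4.13% ± 0.74 for Lipo-BiTE and 5.61% ± 1.01 for Lipo-TriTE, each over 3 libraries with its SD. Lipo-TriTE lay above Lipo-BiTE by a log2 difference of the share of 0.44 (standard error 0.20), and the groups were apart only by the gap between the highest Lipo-BiTE library (4.97%) and the lowest Lipo-TriTE library (4.98%). The exact permutation test, two-sided, gave p = 0.1 for that difference, the smallest that 3 against 3 libraries allow, and 0.3 after Benjamini-Hochberg adjustment over the 3 comparisons. Lipo-BiTE differed from PBS by -0.33 (exact p = 0.3, adjusted 0.45) and Lipo-TriTE from PBS by 0.11 (exact p = 0.5, adjusted 0.5), and these groups overlapped. The sign of the last difference turned without Lipo-TriTE 3 (-0.04) and without PBS 3 (-0.0015). The shares of the 75 mitochondrial ribosomal protein genes were 0.264% ± 0.032 for PBS, 0.207% ± 0.029 for Lipo-BiTE and 0.245% ± 0.020 for Lipo-TriTE, with exact p-values of 0.2 to 0.5 for the same 3 comparisons.

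**Figure D1:**
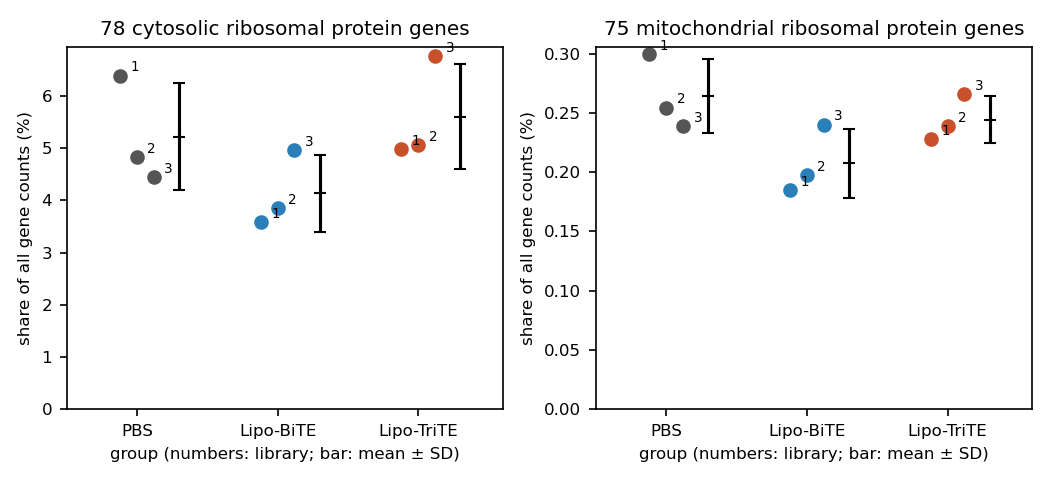
Share of all gene counts (percent, y axis) taken by the cytosolic (left) and mitochondrial (right) ribosomal protein genes in each library, with points numbered by library and bars for the group mean ± SD. For the cytosolic genes, PBS 1 (6.39%) and Lipo-TriTE 3 (6.77%) are the highest libraries, and the Lipo-BiTE and Lipo-TriTE groups are apart by 4.97% against 4.98%.

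Levels differed widely between the genes. Per kilobase of coding sequence, the PBS mean was highest for Rps3a1, a small-subunit protein (3322 CPM per kilobase), and next for Rplp0 (3013), the base of the ribosomal stalk that recruits elongation factors. The lowest were Rpl10l, Rpl3l and Rpl39l, the copies known from testis or muscle. Rpl10l, the retrogene copy of the Rpl10 family known from testis, had 3 counts in PBS 2 and 0 in the other 8 libraries. Rpl39l, also known from male germ cells, had 0 to 3 counts in 8 libraries and 22 in Lipo-TriTE 1. Rpl3l, the striated-muscle copy of Rpl3, had 2 to 15 counts per library. Its log2 difference between Lipo-BiTE and PBS was 1.16, with a 95% interval from -0.66 to 2.99. The 7 skeletal muscle markers summed to 17.9 to 33.3 CPM over the 9 libraries, with 1 of them at 0 in every library; their part in the Rpl3l values was not tested.

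The members were tested with edgeR's quasi-likelihood test over all 16596 genes, with Benjamini-Hochberg adjustment and a call at an adjusted p under 0.05. Few passed. In Lipo-BiTE against PBS 0 members rose and 0 fell, where 17.0% of all tested genes were called (13.8% higher, 3.22% lower). At an unadjusted p under 0.05, 1 member was higher and 3 were lower (20.2% and 12.3% of all genes), and DESeq2 called 0 higher and 1 lower (Rpl23a, background 6.00%). In Lipo-TriTE against PBS 1 member, Rps9, rose and 0 fell, against 33.6% of all genes (18.9% higher, 14.8% lower). At an unadjusted p under 0.05, 4 members were higher and 1 lower there (23.3% and 20.5% of all genes). In Lipo-TriTE against Lipo-BiTE 2 members, Rpl8 and Rps3, rose and 0 fell, against 10.1% of all genes (4.88% higher, 5.21% lower). At an unadjusted p under 0.05, 16 members were higher and 1 lower in that comparison (12.5% and 13.5% of all genes). DESeq2 called 4 members higher in Lipo-TriTE than in PBS (background 22.0%), and 10 higher (background 8.89%) and 1 lower (background 7.25%) in Lipo-TriTE than in Lipo-BiTE. Both comparisons against PBS share the PBS libraries, and the comparison of the treated groups uses their libraries again, so the 3 results are not independent of each other.

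The median log2 difference of the members was -0.19 in Lipo-BiTE against PBS, 0.10 in Lipo-TriTE against PBS and 0.25 in Lipo-TriTE against Lipo-BiTE, beside medians of -0.02, 0.00 and -0.01 over all tested genes. The values lay above 0 for 20, 51 and 65 of the 76 members. With libraries scaled to the members' own sum, which by construction removes a shift of the whole family, the medians were 0.01, -0.02 and -0.07, each of the other sign. In the main scaling the medians depended on single libraries. Without PBS 1 the first was 0.01. Without Lipo-TriTE 3 the second was -0.12 and the last 0.08, and without PBS 3 the second was -0.006. A library that is high for most members moves their values together, so the members are not separate observations of a treatment. The libraries of the groups compared did not overlap for 9 members in the first comparison (42.1% of all genes), for 8 in the second (49.5%) and for 21 in the last (30.5%), of which 1, 7 and 20 were higher. These counts are below the share of all genes in both comparisons against PBS and near it between the treated groups. The 95% intervals lay within a 2-fold change either way for 60, 59 and 50 of the 76 members, against 47.0%, 40.0% and 47.6% of all genes. Absolute log2 differences above 1 were found for 2, 0 and 1 members, against 22.7%, 29.5% and 17.9% of all genes. Without the 3 libraries that were high for most members (PBS 1, Lipo-BiTE 3 and Lipo-TriTE 3), 3 members were higher and 1 lower in Lipo-BiTE than in PBS, 0 and 0 differed between Lipo-TriTE and PBS, and 2 were higher and 2 lower in Lipo-TriTE than in Lipo-BiTE. Of all genes, 19.2%, 31.07% and 6.98% were called in either direction without these libraries. The libraries were chosen after the data were seen, by the levels of the same members. Leaving them out can narrow the members' spread within groups, so these calls are no independent result.

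**Figure D2:**
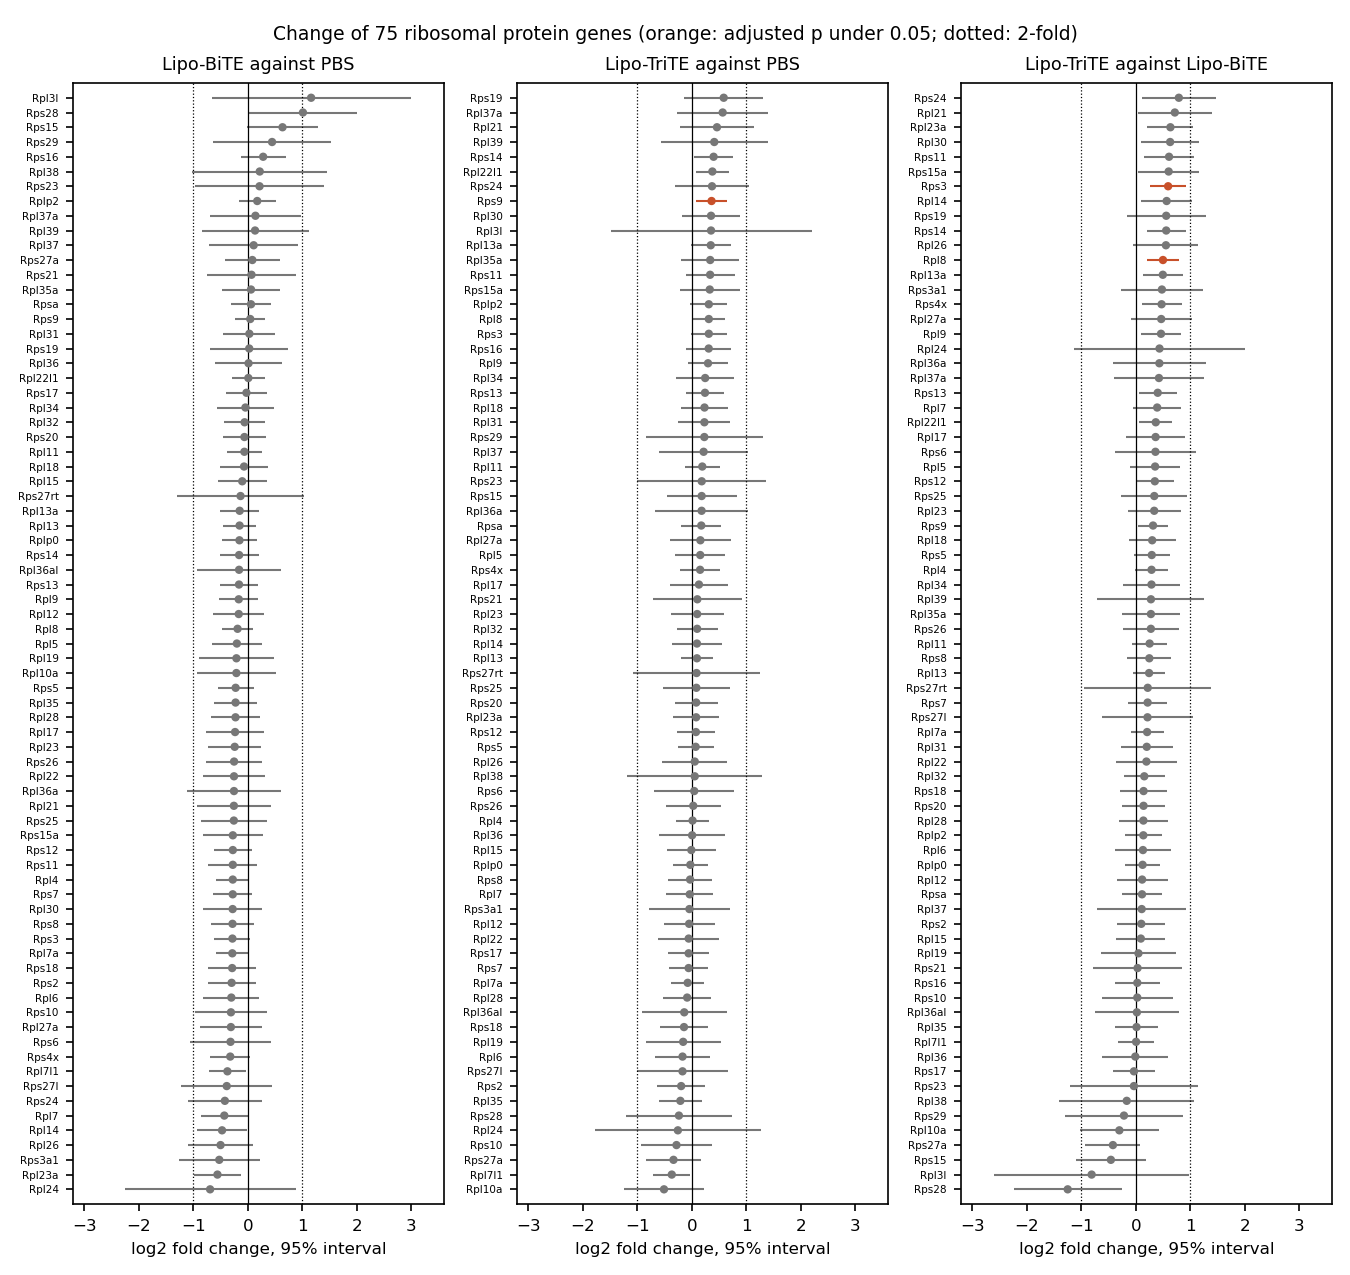
Log2 fold change with its 95% interval (x axis) for 75 of the 76 tested ribosomal protein genes (y axis, sorted within each panel) in the 3 comparisons, with called genes in orange and dotted lines at a 2-fold change. The called genes are Rps9 in the middle panel and Rpl8 and Rps3 in the right panel. In the right panel 65 genes lie above 0. The median there is 0.08 without Lipo-TriTE 3 and -0.07 with libraries scaled to the members' own sum.

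Rps9, a small-subunit protein near the entry of the message channel, lies on chromosome 7 at 610167 to 613068, plus strand, in the coordinates of the deposited table, whose assembly version is not given in the sources used here. Its level was 1224, 1384 and 1243 CPM in the PBS libraries, 1389, 1230.3 and 1356 CPM in Lipo-BiTE and 1686, 1556 and 1713 CPM in Lipo-TriTE. Every Lipo-TriTE library lay above all 6 others. The log2 difference from PBS was 0.36 (standard error 0.13, edgeR adjusted p = 0.047), a 1.29-fold level. The call was lost in all 9 fits that each left out 1 library, with log2 differences of 0.31 to 0.43 and adjusted p-values of 0.051 to 0.15. Against Lipo-BiTE the difference was 0.32 (adjusted p = 0.14).

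Rps3, a small-subunit protein of the message entry channel that is also known for roles in DNA repair, lies on chromosome 7 at 106187560 to 106193404, minus strand, in the same coordinates. Its level was 1537, 1448 and 1289 CPM in PBS, 1160.4, 1084 and 1273 CPM in Lipo-BiTE and 1660.4, 1579 and 2071 CPM in Lipo-TriTE. The 3 groups did not overlap, with Lipo-BiTE lowest and Lipo-TriTE highest. Lipo-TriTE exceeded Lipo-BiTE by a log2 difference of 0.59 (standard error 0.15, edgeR adjusted p = 0.032), a 1.51-fold level. The call was lost without PBS 2 (adjusted p = 0.056), Lipo-BiTE 1 (0.058), Lipo-BiTE 2 (0.14) or Lipo-TriTE 3 (0.11). Against PBS, Rps3 differed by -0.28 in Lipo-BiTE (adjusted p = 0.22) and by 0.31 in Lipo-TriTE (adjusted p = 0.13).

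Rpl8, a large-subunit protein close to the peptidyl transferase centre, lies on chromosome 15 at 79894866 to 79897113, plus strand. Its level was 1209, 1197 and 1089.7 CPM in PBS, 1039, 936 and 1096 CPM in Lipo-BiTE and 1576, 1416 and 1351 CPM in Lipo-TriTE. All 3 Lipo-TriTE libraries were above the other 6, while PBS and Lipo-BiTE overlapped. Lipo-TriTE exceeded Lipo-BiTE by a log2 difference of 0.50 (standard error 0.13, edgeR adjusted p = 0.037), a 1.41-fold level. The call held without PBS 1 (adjusted p = 0.042) or Lipo-BiTE 3 (0.049) and was lost without any other single library, with adjusted p-values of 0.060 to 0.18. With the library total set to the sum of the members, Rps9, Rps3 and Rpl8 kept differences of 0.23, 0.27 and 0.21 with adjusted p-values of 0.46, 0.33 and 0.54.

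Proteins of the stalk, the laminin receptor, the S6 kinase substrate and the 5S particle passed no test in any comparison. Rplp0 was at 3189, 2895 and 2513 CPM in PBS, 2391, 2459 and 2888 CPM in Lipo-BiTE and 2530.1, 2891 and 3023 CPM in Lipo-TriTE. Rplp2, an acidic protein of the stalk, was at 394, 400.2 and 327 CPM in PBS, 398, 366 and 501 CPM in Lipo-BiTE and 471, 431 and 491 CPM in Lipo-TriTE, where each Lipo-TriTE library exceeded each PBS library. The groups of Rplp0 overlapped throughout. Rpsa, the small-subunit protein also known as a laminin receptor, was at 751, 628 and 588 CPM in PBS, 648, 607 and 795 CPM in Lipo-BiTE and 861, 679 and 679 CPM in Lipo-TriTE. Rps6, the substrate of the S6 kinases downstream of mTORC1, was at 887, 416 and 442 CPM in PBS, 552, 352 and 498 CPM in Lipo-BiTE and 424, 839 and 539 CPM in Lipo-TriTE, the high library being PBS 1 in one group and Lipo-TriTE 2 in another. Message levels do not report its phosphorylation.

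Rpl5 and Rpl11 form the 5S particle with 5S ribosomal RNA and are known to bind MDM2 and stabilise p53 when ribosome assembly fails. Rpl5 was at 1112, 787 and 750.1 CPM in PBS, 718, 735 and 853 CPM in Lipo-BiTE and 842, 830.0 and 1279 CPM in Lipo-TriTE. Rpl11 was at 799, 771 and 733 CPM in PBS, 713, 636 and 858 CPM in Lipo-BiTE and 887, 806 and 940.1 CPM in Lipo-TriTE. For both, Lipo-TriTE and Lipo-BiTE overlapped. The log2 difference between Lipo-TriTE and Lipo-BiTE was 0.13 for Rplp0 (95% interval -0.20 to 0.45), 0.14 for Rplp2 (-0.20 to 0.48), 0.12 for Rpsa (-0.25 to 0.48), 0.36 for Rps6 (-0.37 to 1.10), 0.36 for Rpl5 (-0.10 to 0.81) and 0.25 for Rpl11 (-0.06 to 0.57). All 6 intervals include 0 and 5 of them exclude a 2-fold change. Scaled to the members' sum, 4 of these differences turned sign, to -0.18 (Rplp0), -0.16 (Rplp2), -0.17 (Rpsa) and -0.05 (Rpl11). That scaling lowers all differences of this comparison together (the median of all genes became -0.32), so small ones turn sign by construction.

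The genes were also grouped by their place in the ribosome. The 9 tested genes of the polypeptide exit tunnel and its rim, where nascent chains leave, had median log2 differences of -0.23, 0.06 and 0.28 in the 3 comparisons, with 0 calls. The 5 genes of message entry and decoding had 0.05, 0.18 and 0.10, with Rps9 and Rps3 as their calls. The 4 genes of the message exit channel and platform had -0.19, 0.05 and 0.29 with 0 calls, and the 9 genes mutated in Diamond-Blackfan anaemia, an inherited failure of red cell production, had -0.20, 0.16 and 0.28 with 0 calls. The 44 large-subunit genes (-0.18, 0.10 and 0.27) and the 32 small-subunit genes (-0.24, 0.09 and 0.23) had like medians.

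Rps28 and Rpl23a were chosen after their values were seen, and Rps28 did not follow the order of the members' medians. Rps28, a small protein of the small subunit beside the message exit, was at 51.1, 31.2 and 17.2 CPM in PBS, 75.996, 70.3 and 54.0 CPM in Lipo-BiTE and 36.0, 11.7 and 36.6 CPM in Lipo-TriTE. All 3 Lipo-BiTE libraries were above the other 6, whereas the fitted level of 56 of the 76 members was lower in Lipo-BiTE than in PBS. Its log2 difference was 1.01 in Lipo-BiTE against PBS (standard error 0.44, edgeR adjusted p = 0.14) and -1.25 in Lipo-TriTE against Lipo-BiTE (standard error 0.45, adjusted p = 0.10, DESeq2 adjusted p = 0.040). Over 20 alternative settings and left-out libraries, these differences ran from 0.68 to 1.59 and from -1.67 to -0.84. The first was called in 0 of these 20 fits and the second in 2. Of the 9 fits that left out 1 library, 0 called either. Entries outside the naming rule held 16.5% of the counts described as Rps28. Rpl23a, a protein at the tunnel exit that contacts the signal recognition particle, was at 698.5, 628 and 586 CPM in PBS, 426, 409.8 and 466 CPM in Lipo-BiTE and 604, 521 and 897 CPM in Lipo-TriTE. Lipo-BiTE was below both other groups in every library, by log2 differences of -0.56 from PBS (adjusted p = 0.072, DESeq2 0.043) and 0.64 between Lipo-TriTE and Lipo-BiTE (adjusted p = 0.059, DESeq2 0.014). Of the same 20 alternative settings and left-out libraries, 7 called the first difference of Rpl23a and 4 the second. Only 1 of the 9 fits that left out 1 library called each of them.

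The paralogues and like genes included 8 members, of which 6 were tested and 0 called. Rpl22l1 is the paralogue of Rpl22, and the pair is known from T cell development. Rpl22l1 was at 62.8, 78.03 and 67.5 CPM in PBS, 69.8, 64.9 and 75.2 CPM in Lipo-BiTE and 88.6, 83.1 and 99.1 CPM in Lipo-TriTE. Lipo-TriTE was above both other groups in every library, and the log2 difference from PBS was 0.38 (standard error 0.14, edgeR adjusted p = 0.055). Its counts were 10.3%, 21.5% and 17.9% of those of Rpl22 in PBS, 20.6%, 18.4% and 17.0% in Lipo-BiTE and 24.6%, 24.4% and 16.6% in Lipo-TriTE, so the groups overlapped. Rpl7l1, a Rpl7-like protein known from ribosome assembly, had 10.1% to 17.7% of the counts of Rpl7. Rpl36al, an autosomal copy of the X-linked Rpl36a, had 37.7% to 61.5% of the counts of Rpl36a. The Rpl7l1 and Rpl36al ratios in Lipo-TriTE lay below those in Lipo-BiTE in every library, by log2 differences of -0.37 and -0.35 (exact permutation p = 0.1 for each). Over the 12 tests of 4 pairs, Rpl39l to Rpl39 included, the adjusted p-values were 0.6 to 0.9. Rps27l, a paralogue of Rps27 known as a p53 target, was at 54.1 to 109 CPM in PBS, 47.7 to 67.4 CPM in Lipo-BiTE and 43.3 to 105 CPM in Lipo-TriTE. The entry named Rps27rt, at 229 to 757 CPM in PBS, 322 to 480 CPM in Lipo-BiTE and 238 to 804 CPM in Lipo-TriTE, is placed on chromosome 3 in the deposited table and on chromosome 9 in RefSeq, so which locus it counts is uncertain.

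The spread between libraries followed 1 library in each group. PBS 1 was the highest PBS library for 66 of the 76 members, Lipo-BiTE 3 the highest Lipo-BiTE library for 67 and Lipo-TriTE 3 the highest Lipo-TriTE library for 62. The median within-group SD of log2 CPM was 0.28 for the members and 0.29 for all tested genes. It was 0.63 for the 8 members with coding sequences under 300 bases and 0.19 for the 15 with 700 bases or more. Members with a large spread were Rpl38 (SD 0.81), Rps23 (0.76), Rps27rt (0.74), Rps29 (0.71), Rps28 (0.65) and Rpl39 (0.61). Rpl38, a short large-subunit protein known from a mouse mutant with patterning defects of the skeleton, was at 222, 71.0 and 64.5 CPM in PBS, 109, 114 and 192 CPM in Lipo-BiTE and 72.8, 68.4 and 229.9 CPM in Lipo-TriTE. The differences of over 3-fold between PBS 1 and the other PBS libraries exceeded any difference between the group means of this gene.

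**Figure D3:**
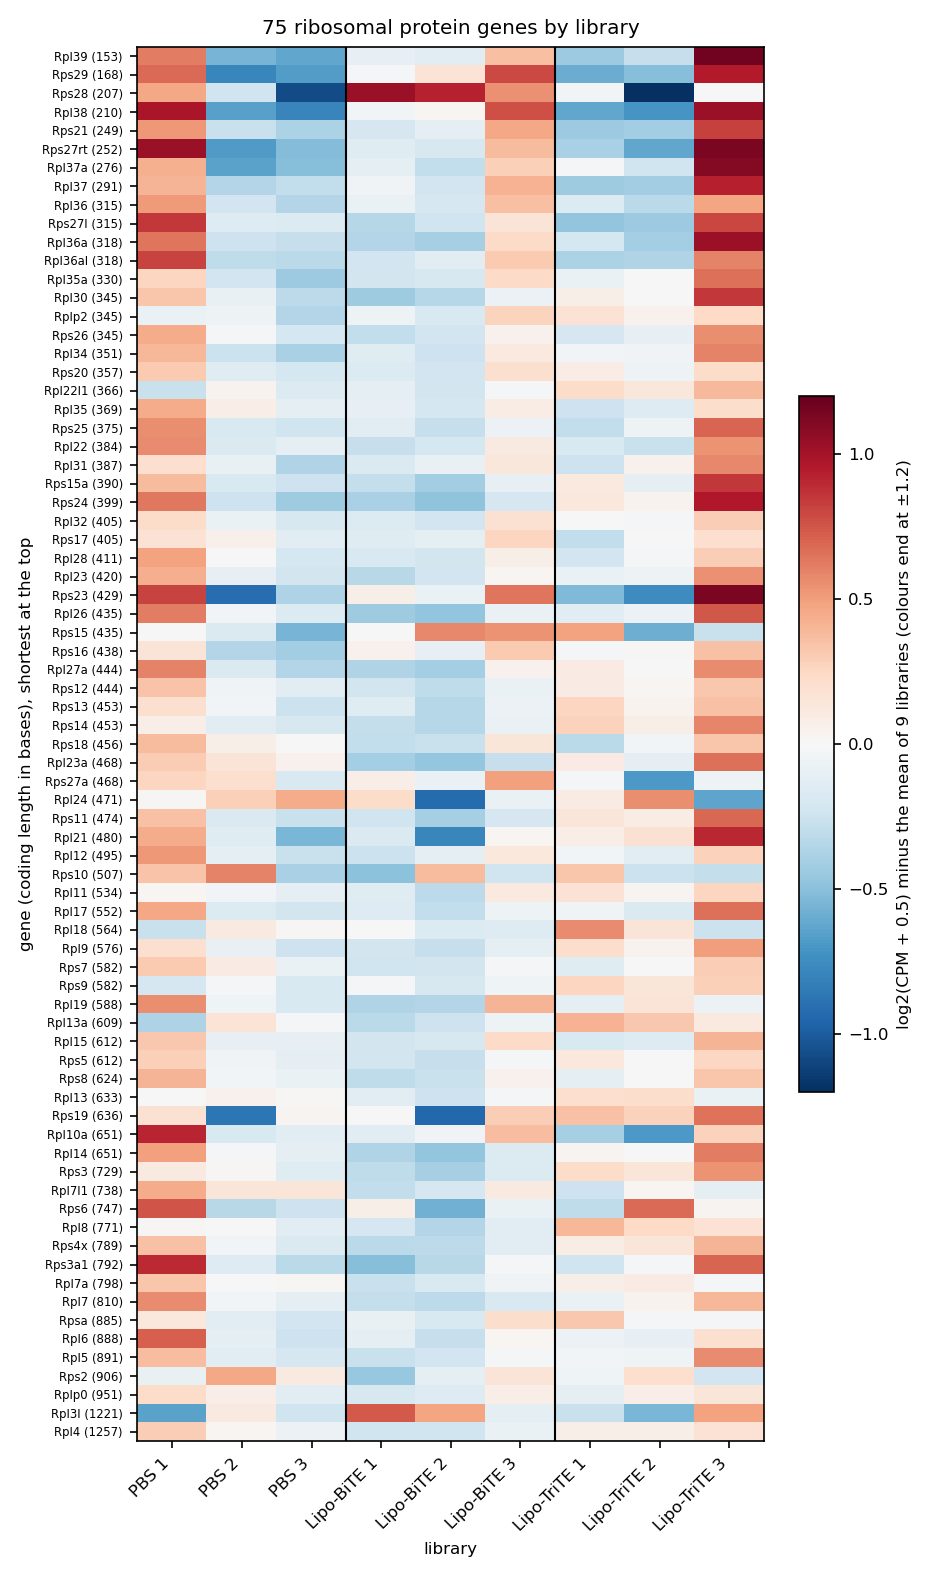
Heat map of log2(CPM + 0.5) minus the mean over 9 libraries for 75 of the 76 tested genes (from top to bottom by coding length, shortest first) in each library (left to right). PBS 1 and Lipo-TriTE 3 are red for most genes, most deeply among the short genes at the top. On this scale the median of the 76 genes is 0.37 in PBS 1, 0.40 in Lipo-TriTE 3 and only 0.05 in Lipo-BiTE 3. Rps28 is red in the 3 Lipo-BiTE libraries.

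Genes outside the family with short coding sequences deviated in PBS 1 and Lipo-TriTE 3 too, and hardly in Lipo-BiTE 3. Coding lengths came from GENCODE M21 and were matched by symbol for all 76 members and for 8098 of 8491 protein-coding genes with a mean log2 CPM above 4. In PBS 1 the median deviation from the group mean was 0.78 for members under 300 bases and 0.21 for members of 700 to under 1000 bases, beside 0.23 and 0.07 for other genes of those lengths and -0.10 for other genes of 2000 bases or more. In Lipo-TriTE 3 the same values were 0.96 and 0.11 for members and 0.31, 0.02 and -0.12 for other genes. In Lipo-BiTE 3 members under 300 bases deviated by 0.37, and other genes of that length by 0.03. For a value per library, log2 CPM was also centred on each gene's mean over all 9 libraries instead of the group mean. The median of other genes of 2000 bases or more was then subtracted from that of other genes under 500 bases. This difference was 0.20 in PBS 1 and 0.49 in Lipo-TriTE 3, against -0.26 to 0.05 in the other 7 libraries. With this difference as a covariate, an alternative chosen after the data were seen, 1 member rose and 4 fell in Lipo-BiTE against PBS, 3 rose and 11 fell in Lipo-TriTE against PBS, and 2 rose and 4 fell in Lipo-TriTE against Lipo-BiTE. Of all genes, 20.99%, 35.48% and 6.05% were called in either direction in that fit. The members' medians were then -0.15, -0.15 and -0.05, so that both medians of Lipo-TriTE changed sign. The covariate was not centred within groups. It was 0.20, -0.15 and -0.26 in PBS, -0.05, -0.19 and -0.06 in Lipo-BiTE and -0.04, 0.05 and 0.49 in Lipo-TriTE. It therefore overlaps with the groups, and this fit cannot tell its part from that of the treatment.

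**Figure D4:**
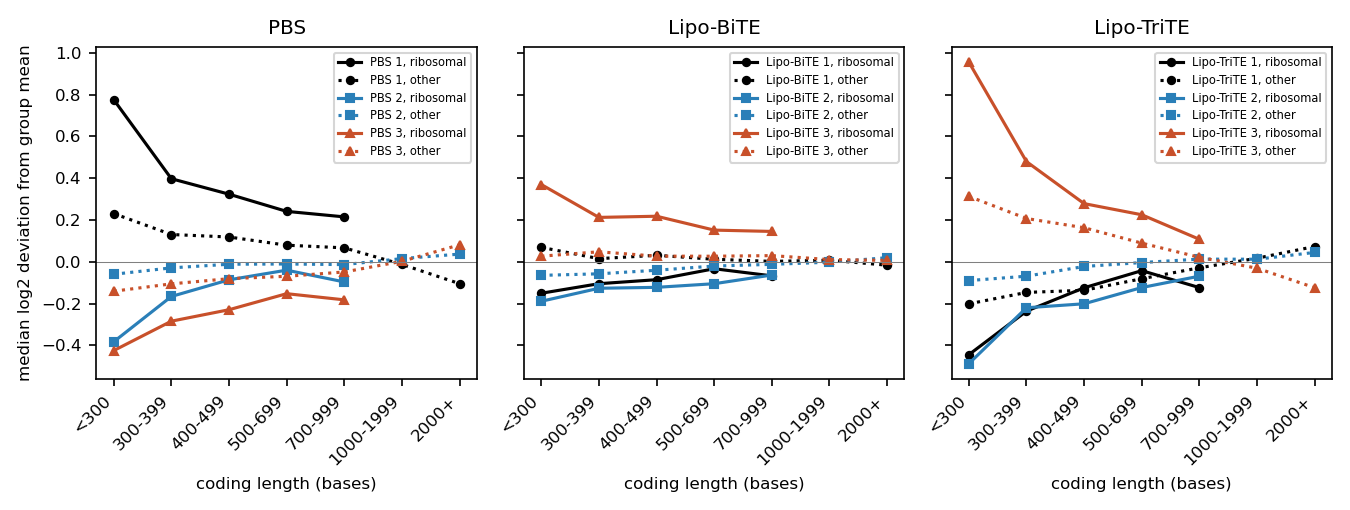
Median log2 deviation from the group mean (y axis) by coding length (x axis, bases) for ribosomal protein genes (solid lines) and other protein-coding genes (dotted lines), 1 colour per library in each group, classes of at least 5 genes. PBS 1 and Lipo-TriTE 3 start highest among the shortest genes, at 0.78 and 0.96 for members and 0.23 and 0.31 for other genes.

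Ribosomal protein messages have many processed copies in the genome, and reads can be split among them. Outside the naming rule, 1441 entries carry a deposited description of a ribosomal protein, 864 of them with at least 1 count. Together they held 0.699% ± 0.082 of counts for PBS, 0.590% ± 0.096 for Lipo-BiTE and 0.747% ± 0.057 for Lipo-TriTE, each over 3 libraries with its SD. The most abundant, given next, were protein-coding entries at the level of main genes. They are described as Rpl10, Rpl3, Rplp1, Fau and Rpl27, for which the naming rule found no member, so they are not copies of a member. Rpl29 had no member either. A protein-coding entry named Rpl10-ps3 stood at 1613 CPM in PBS, an unnamed entry described as Rpl3 at 1421 CPM, Gm10073, described as Rplp1, at 881 CPM, Gm9843, described as Fau, at 581 CPM, and an unnamed entry described as Rpl27 at 574 CPM. Copies held 88.4% of the counts described as Rpl24 and 85.9% of those described as Rpl19, so the low values of both members are uncertain. Copies likewise held 98.5% of the counts described as Rpl10l, which had 3 counts of its own, so its place as the lowest member is uncertain too. Gm10073, through which Rplp1, the partner of Rplp2 in the stalk, appears here, was at 971, 867 and 806 CPM in PBS, 759, 758 and 923 CPM in Lipo-BiTE and 1039, 1069 and 1191 CPM in Lipo-TriTE. Each Lipo-TriTE library lay above the other 6, with a log2 difference from Lipo-BiTE of 0.44 (standard error 0.14, edgeR adjusted p = 0.077).

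Gm9843 was chosen after its values were seen. It is described as Fau, the fusion gene that encodes the small-subunit protein eS30, and was at 605, 604 and 534 CPM in PBS, 847, 696 and 763 CPM in Lipo-BiTE and 867, 861 and 861 CPM in Lipo-TriTE. It rose in Lipo-TriTE against PBS by a log2 difference of 0.57 (standard error 0.13, edgeR adjusted p = 0.0068), and its difference was 0.40 in Lipo-BiTE (adjusted p = 0.056). The call held without any single library and was lost when libraries were scaled to the sum of the members (adjusted p = 0.14).

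Genes that make ribosomes were given beside the members. Of 45 tested genes of ribosome biogenesis and RNA polymerase I, 0 rose and 9 fell in Lipo-BiTE against PBS, 0 rose and 10 fell in Lipo-TriTE against PBS, and 0 were called in Lipo-TriTE against Lipo-BiTE, with medians of -0.36, -0.33 and 0.03. Over all genes, 3.22% and 14.8% were called lower in the first and second comparison. Dkc1, the pseudouridine synthase of box H/ACA particles, was at 169, 137 and 129 CPM in PBS, 71.4, 73.0 and 94.4 CPM in Lipo-BiTE and 98.5, 108 and 116 CPM in Lipo-TriTE. It fell by 0.86 on the log2 scale in Lipo-BiTE (edgeR adjusted p = 0.0039). Utp20, a factor of small-subunit assembly, fell by 0.70 in Lipo-BiTE (adjusted p = 0.0043) and by 0.75 in Lipo-TriTE (adjusted p = 0.0017). Polr1b, a subunit of RNA polymerase I, fell by 0.69 (adjusted p = 0.0046) and Rrp1b, a nucleolar assembly factor, by 0.62 (adjusted p = 0.0063) in Lipo-TriTE against PBS. The calls of these 4 genes held without any single library. Nop56, a core protein of box C/D particles, fell by 0.71 in Lipo-BiTE against PBS (adjusted p = 0.018), a call lost without PBS 1 (adjusted p = 0.060), PBS 2 (0.053) or Lipo-BiTE 1 (0.061). Over the list, the count of 9 was 2 to 17 and the count of 10 was 5 to 15 over the fits that left 1 out. The count of 9 was 2 without PBS 1, PBS 2 or Lipo-BiTE 1, 3 without Lipo-BiTE 2, 4 without PBS 3 or Lipo-TriTE 2, and 17 without Lipo-BiTE 3. The count of 10 was 5 without PBS 2 and 6 without Lipo-TriTE 2. Without PBS 1, Lipo-BiTE 3 and Lipo-TriTE 3 together, the counts were 14 and 12. With libraries scaled to the members' sum, the count of 9 was 1. The T cell, macrophage and neutrophil markers rose in the same comparisons, and their part in these counts was not tested.

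Translation factors came next. For the counts of each list here, the shares of all tested genes called by the same edgeR test are given first. Lipo-BiTE had 13.8% of all genes higher and 3.22% lower than PBS. Lipo-TriTE had 18.9% higher and 14.8% lower than PBS, with 4.88% higher and 5.21% lower than Lipo-BiTE. Of 35 initiation and elongation factors, 1 rose and 1 fell in Lipo-BiTE against PBS, 1 rose and 6 fell in Lipo-TriTE against PBS, and 0 were called between the treated groups. Of 15 further genes known for TOP messages, 0 were called in Lipo-BiTE against PBS, while in Lipo-TriTE against PBS Vim, an intermediate filament, and Pabpc1, the poly(A)-binding protein, fell. Vim fell by 0.55 on the log2 scale (edgeR adjusted p = 0.011), a call lost without PBS 2 (adjusted p = 0.061) or Lipo-TriTE 1 (0.054). Pabpc1 was at 2180, 2740 and 2564 CPM in PBS, 2452, 2735 and 2783 CPM in Lipo-BiTE and 1804, 1833 and 1682 CPM in Lipo-TriTE, and fell by 0.49 against PBS (adjusted p = 0.017) and by 0.58 against Lipo-BiTE (adjusted p = 0.024). The call against PBS was lost without PBS 2 (adjusted p = 0.11), PBS 3 (0.076) or Lipo-TriTE 2 (0.054). The call against Lipo-BiTE held only without PBS 1 or Lipo-BiTE 1, and was lost without any of the other 7 libraries, with adjusted p-values of 0.052 to 0.094. Rack1, the scaffold protein of the small subunit, was at 2831, 2418 and 2267 CPM in PBS, 2096, 2055 and 2319 CPM in Lipo-BiTE and 2202, 2293 and 2310 CPM in Lipo-TriTE. It passed no test. Of 7 chaperones of ribosomal proteins, 1 fell in Lipo-BiTE and 2 in Lipo-TriTE against PBS, and of 5 hosts of small nucleolar RNAs 0 were called.

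Among 16 genes of mTORC1, the S6 kinases, the 4E-BPs and MYC, 2 rose and 0 fell in Lipo-BiTE against PBS. In Lipo-TriTE 4 rose and 5 fell against PBS, and 0 rose and 1 fell against Lipo-BiTE. In the same order, 13.8%, 18.9% and 4.88% of all genes were called higher, and 3.22%, 14.8% and 5.21% lower. These shares also stand beside the mitochondrial counts below. Myc, the transcription factor known to drive ribosome production, was at 3.1, 5.3 and 5.2 CPM in PBS, 24.5, 18.1 and 16.8 CPM in Lipo-BiTE and 63.5, 26.7 and 20.3 CPM in Lipo-TriTE. It rose by log2 differences of 2.12 (edgeR adjusted p = 0.0066) and 3.01 (adjusted p = 0.00063), and every treated library was above every PBS library. Deptor, an inhibitory subunit of mTOR complexes, fell by 1.00 on the log2 scale in Lipo-TriTE against PBS (adjusted p = 0.0014). Rptor, of the same list, fell by 0.77 in that comparison too (edgeR adjusted p = 0.012). Larp1, a binder of TOP messages, was at 218, 341 and 350 CPM in PBS, 345, 351 and 381 CPM in Lipo-BiTE and 253, 170 and 149 CPM in Lipo-TriTE, and fell in Lipo-TriTE against Lipo-BiTE by 0.91 (adjusted p = 0.030). That call was lost without Lipo-BiTE 2 (adjusted p = 0.091), Lipo-BiTE 3 (0.076), Lipo-TriTE 2 (0.11) or Lipo-TriTE 3 (0.097). Of 74 tested mitochondrial ribosomal protein genes, 0 rose and 1 fell, 1 rose and 3 fell, and 1 rose and 0 fell in the 3 comparisons, with medians of -0.22, -0.08 and 0.14.

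**Figure D5:**
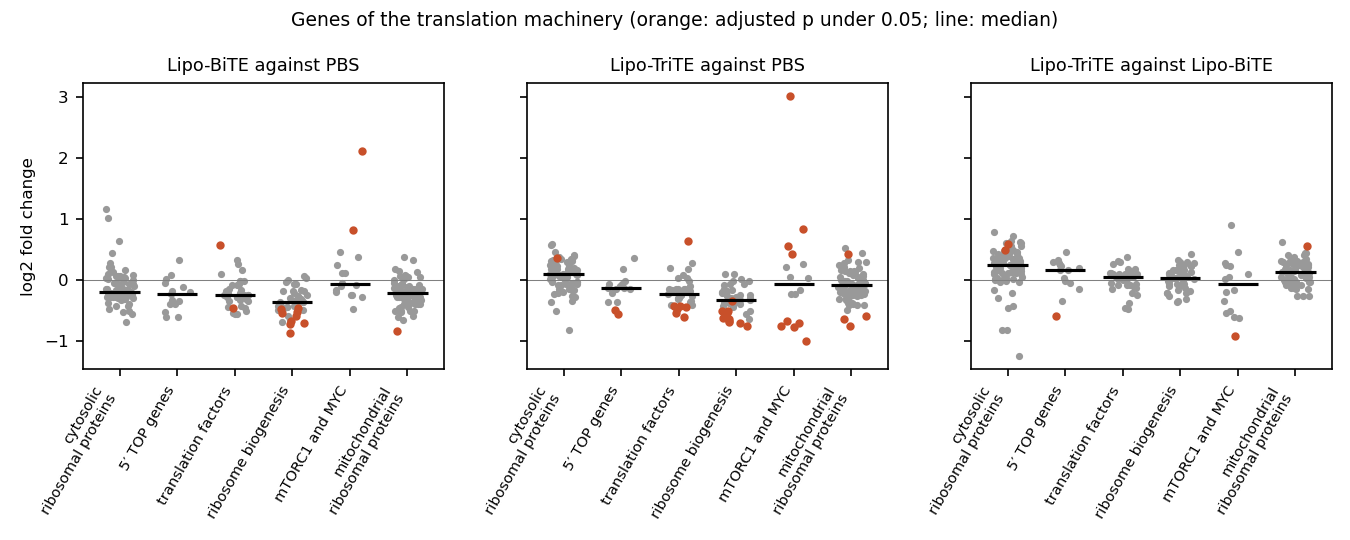
Log2 fold change (y axis) of each tested gene in 6 lists of the translation machinery (x axis) in the 3 comparisons, with called genes in orange and the list median as a line. The ribosome biogenesis list has medians of -0.36 and -0.33 against PBS with 9 and 10 called genes, all below 0, and Myc is the highest point in the first and second panels.

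Across the 9 libraries, the genes outside the family whose log2 CPM ran most like that of the summed members were an unnamed processed pseudogene described as Rpl36a (Pearson r = 0.969), Apool (0.962) and Chchd3 (0.959), both proteins of the mitochondrial inner membrane organising system, an unnamed processed pseudogene described as Rpl27 (0.955) and Armc1 (0.952). Apool was at 29.5, 15.8 and 15.5 CPM in PBS, 13.97, 13.3 and 17.2 CPM in Lipo-BiTE and 15.9, 16.1 and 28.4 CPM in Lipo-TriTE, so PBS 1 and Lipo-TriTE 3 were its high libraries too. These correlations describe 9 libraries that differ in depth and in the levels of cell type markers, and no test was made.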

How the data were processed

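The authors' deposited table holds whole-number read counts per gene for 9 tumour libraries, with gene length, coordinates and descriptions, per the file headers. Gene identifiers carry a C57BL/6NJ strain prefix; the aligner, the counter and the assembly version were not given in the sources used here. Per the labels' protocols, RNA was fragmented, primed with random hexamers, size-selected and amplified by PCR. The PBS columns are headed Untreated and were matched to the PBS samples as the only group left without a header of its own. Counts were tested in edgeR 4.0.16 (R 4.3.3; filterByExpr, TMM, quasi-likelihood F test, all 3 groups in one fit), with Benjamini-Hochberg adjustment. CPM values use TMM-scaled totals. Shares were compared as log2 shares by exact permutation tests. Scripts were tested on simulated data. The members, lists and named-gene rule were chosen with earlier results of these data known. The rule named called members, Rplp0, Rplp1, Rplp2, Rpsa, Rps6, Rpl5, Rpl11, paralogues with their main genes, the highest and lowest member per length, up to 3 genes of each list by smallest p (of which the text gives a part), and the 5 genes most like the summed members. Alternatives were DESeq2 1.42.0, other scalings and filters, 2 groups only, the replicate number as a block, each library left out, and, added after seeing the data, copies summed with members, a covariate for short coding regions and leaving out 3 libraries. Samples were not paired in the main test: same-numbered libraries' deviations correlated by -0.19 to 0.08. 1 member is not reported here by name, and the plots that name each gene show the other 75; it stays in the counts and sums.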

Additional observations from a re-analysis of the deposited data

How the results depend on the processing

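Counts of members higher and lower were 0 and 0 (Lipo-BiTE against PBS), 1 and 0 (Lipo-TriTE against PBS) and 2 and 0 (Lipo-TriTE against Lipo-BiTE); each percentage here is the share of all genes called in either direction, in the same order. With DESeq2 they were 0 and 1, 4 and 0, and 10 and 1 (22.65%, 37.32% and 16.15%). With total counts and no TMM they were 0 and 1, 0 and 0, and 5 and 0 (18.48%, 32.3% and 9.34%); this scaling moved the median of all genes to -0.16, -0.01 and 0.11. Scaled to the members' own sum they were 0 and 0, 0 and 0, and 0 and 1 (12.34%, 24.87% and 5.93%), with medians of all genes of 0.16, -0.11 and -0.32. Without a filter they were 0 and 3, 0 and 0, and 15 and 0 (10.46%, 17.57% and 8.93%). At 1 CPM in 3 libraries they were 0 and 0, 2 and 0, and 3 and 0 (18.59%, 35.07% and 10.1%). With only the 2 groups compared they were 0 and 1, 0 and 0, and 0 and 0 (16.91%, 33.9% and 8.53%). With copies summed they were 0 and 1, 2 and 0, and 4 and 0 (17.13%, 33.27% and 9.96%), with the covariate for short coding regions 1 and 4, 3 and 11, and 2 and 4 (20.99%, 35.48% and 6.05%), and without PBS 1, Lipo-BiTE 3 and Lipo-TriTE 3 they were 3 and 1, 0 and 0, and 2 and 2 (19.2%, 31.07% and 6.98%). Leaving out 1 library gave 0 to 0 and 0 to 1, 0 to 0 and 0 to 0, and 0 to 3 and 0 to 0.

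No sign was seen that the replicate numbers pair the libraries. Deviations of same-numbered libraries correlated by -0.19 to 0.08 and those of other pairs by -0.17 to 0.24. With 3 libraries per group this cannot exclude a pairing. With the replicate block the counts were 0 and 0, 1 (Rps19) and 0, and 0 and 0 (13.1%, 29.65% and 7.55%). The biogenesis count of 9 was 3 with the block. The exact paired p of the share was 0.25 or above, the smallest that 3 pairs allow. The mean of the paired differences in log2 share equals the difference of the group means, so pairing could not change its sign.

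The count of 9 biogenesis genes lower in Lipo-BiTE was 15 with DESeq2, 17 with total counts, 1 scaled to the members' sum, 14 with the covariate and 14 without the 3 libraries, and 2 to 17 over left-out libraries. The count of 10 in Lipo-TriTE was 23 with the covariate and 5 to 15 over left-out libraries. The share of Lipo-TriTE against PBS ran from -0.038 to 0.26 over left-out libraries, turning sign without Lipo-TriTE 3 and without PBS 3. Scaled to the members' sum, 4 differences between Lipo-TriTE and Lipo-BiTE reversed, to -0.18 (Rplp0), -0.16 (Rplp2), -0.17 (Rpsa) and -0.047 (Rpl11). That scaling lowers all differences of the comparison together, so small ones reverse by construction. Rplp0 also reversed to -0.0087 with the covariate. Over left-out libraries, log2 paralogue ratios of Lipo-BiTE against PBS ran from -0.093 to 0.101 (Rpl7l1), from -0.073 to 0.454 (Rpl22l1) and from -0.747 to 0.681 (Rpl39l), and those of Rpl39l in Lipo-TriTE from -0.689 to 1.94 against PBS and from -0.534 to 2.10 against Lipo-BiTE. The cause of the other changes was not tested. Depth limits Rpl10l (0 to 3 counts per library), Rpl39l (0 to 22) and Rpl3l (2 to 15).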
